A study of Mus musculus with 6 samples.

Results

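The 10 genes described here mark the endothelium, the cell layer that lines blood vessels. They are the VEGF receptor genes Kdr, Flt1 and Flt4, the adhesion and junction genes Cdh5, Pecam1 and Cldn5, the Tie receptor genes Tie1 and Tek, and the transcription factor genes Sox7 and Sox18. They were taken by gene symbol from tables that list 46078 genes, and all 10 were among the 15568 genes with enough counts to be tested. RNA was sequenced from explants of mesoderm, the germ layer that forms heart, blood and vessels, dissected from E7.25 mouse embryos during gastrulation and cultured on fibronectin. The 6 libraries formed 3 groups of 2, namely explants given 1 µM of an inhibitor labelled PD, explants given 10 µM YZ9, and control explants, with 16 h of treatment. YZ9 blocks PFKFB3, an enzyme whose product stimulates glycolysis. The sample labels give every explant as wild type, whereas the description of the series names a TCF/Lef:H2B-GFP reporter strain for all of them. Culture lasted 27 h by the growth protocol, but 24 h by the text on the series. Whether controls received a vehicle is not given in the sources used here, and nothing states that replicate libraries represent different litters or cultures. The p-values therefore measure the spread between these libraries. The 2 libraries of each inhibitor group differ in the sex read from them below, so they are not repeats of the same material. The spread between the control libraries, both read as male, may be technical.

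Endothelial cells arise from mesoderm cells that carry the receptor KDR and respond to VEGF. Progenitors of blood arise from KDR-positive mesoderm as well, and the early heart also draws on it. As vessels form, endothelial cells gain adherens and tight junctions, and the Tie receptors then act in vessel remodelling and stability. SOX7 and SOX18 are SoxF factors, transcription factors that act in endothelial specification. Several of the genes are not restricted to endothelium, because Pecam1 and Tek are also active in early blood progenitors and Sox7 also in primitive endoderm.

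Total counts per library lay between 21253194 and 27810161, and between 20112 and 20933 genes had a count. Levels below are CPM, a gene's share of the library's counts after TMM scaling,, and levels between genes are compared only as CPM per kb of exon. Xist, the RNA of the inactive X chromosome, reached 2119 counts in the second PD library and 3956 counts in the second YZ9 library, with at most 1 count elsewhere. Counts of 4 Y-linked genes ran the other way, so PD replicate 2 and YZ9 replicate 2 were read as female and the other 4 libraries as male. The summed level of 10 blood markers was 517 and 6660 CPM in PD explants, 97.6 and 1226 CPM in YZ9 explants, and 2578 and 7546 CPM in control explants. Except in YZ9 replicate 1, most of each sum came from the globin genes Hba-x, Hbb-bh1 and Hbb-y. Other cell types were present too. The sum of 9 cardiac markers was 3936 and 1472 CPM in PD explants and 3510 and 1718 CPM in YZ9 explants. In control explants it was 5080 and 4220 CPM, above all 4 inhibitor libraries. Both PD libraries lay below both controls for 6 of the 9 markers, against 19.5% of all genes. Both YZ9 libraries did so for 4 of them, against 24.5% of all genes, and lay above both controls for 1, against 21.1%.

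In control explants all 10 genes were detected, and they fell into tiers of level per kb. Tek stood highest, at 34.7 and 28.6 CPM per kb in the 2 control libraries. Pecam1 followed at 8.02 and 9.69 CPM per kb, above every other member except Tek in both control libraries. A middle tier held Flt1 at a mean of 6.28, Kdr at 5.6, Cdh5 at 5.02 and Sox7 at 4.28 CPM per kb. The ranges of neighbours within this tier overlapped. Within each control library Flt1 lay above Kdr and Kdr above Cdh5, while Cdh5 and Sox7 changed order between the 2 libraries. Tie1 lay below them at a mean of 2.33 CPM per kb, separate from its neighbours on either side. The lowest members were Cldn5 at 1.30, Flt4 at 1.06 and Sox18 at 1.03 CPM per kb, which also overlapped each other. The scarcest of them by counts was Cldn5 in control replicate 1, with 36 counts, as many as Sox18 had in control replicate 2.

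**Figure D1:**
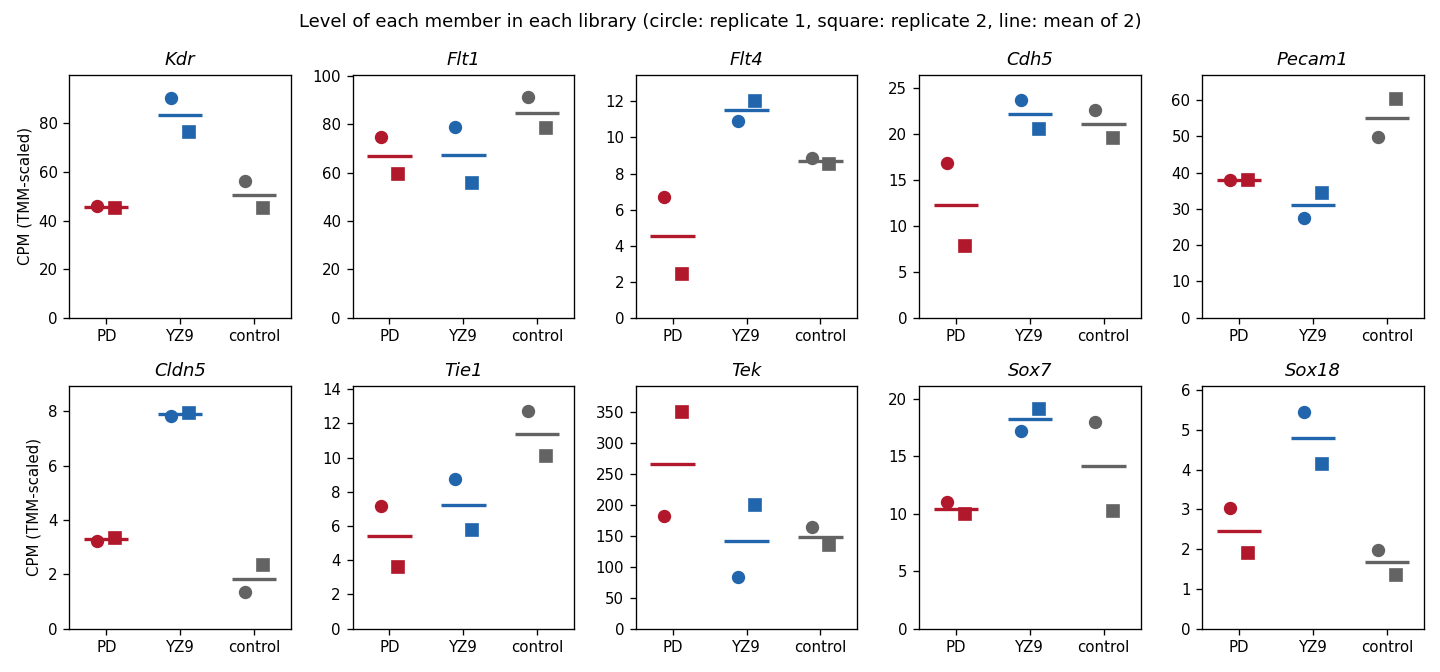
Level of each of the 10 genes in each library, in CPM on an axis that starts at 0, with PD explants left, YZ9 explants in the middle and control explants right. Circles are replicate 1, squares replicate 2 and lines are the means of 2 libraries. Cldn5 sits at 7.84 and 7.96 CPM in YZ9 explants, against 1.35 and 2.33 CPM in control explants, while the Tek points of the inhibitor groups lie far apart.

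The promoters of Kdr, Flt1, Cldn5 and Tek, taken from RefSeq on GRCm38.p6, are shown because the RNA levels of these genes parted ways in the comparisons below. Each line is the 250 bases upstream of the RefSeq start on the gene's own strand. Capitals mark matches, on either strand, to GGAAG (the core of ETS factor sites), ACAAT (a core of SOX factor sites) or GGGCGG (the GC box), and no 2 matches overlap. The positions are chr5:75978456-75978705 (minus strand) for Kdr, chr5:147726012-147726261 (minus strand) for Flt1, chr16:18776597-18776846 (plus strand) for Cldn5 and chr4:94739039-94739288 (plus strand) for Tek.
Kdr: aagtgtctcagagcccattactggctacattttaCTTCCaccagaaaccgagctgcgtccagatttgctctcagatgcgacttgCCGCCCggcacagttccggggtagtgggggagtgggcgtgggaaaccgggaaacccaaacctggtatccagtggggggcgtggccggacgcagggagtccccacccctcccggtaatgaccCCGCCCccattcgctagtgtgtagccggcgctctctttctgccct
Flt1: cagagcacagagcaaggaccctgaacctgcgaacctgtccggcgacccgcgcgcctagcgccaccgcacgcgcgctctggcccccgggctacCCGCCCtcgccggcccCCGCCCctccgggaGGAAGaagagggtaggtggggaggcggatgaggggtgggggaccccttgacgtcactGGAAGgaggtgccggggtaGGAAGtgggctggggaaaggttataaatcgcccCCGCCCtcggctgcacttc
Cldn5: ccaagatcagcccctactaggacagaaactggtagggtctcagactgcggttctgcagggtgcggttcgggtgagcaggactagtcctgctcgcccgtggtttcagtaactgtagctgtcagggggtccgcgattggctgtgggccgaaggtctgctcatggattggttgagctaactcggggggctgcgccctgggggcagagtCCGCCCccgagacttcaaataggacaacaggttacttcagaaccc
Tek: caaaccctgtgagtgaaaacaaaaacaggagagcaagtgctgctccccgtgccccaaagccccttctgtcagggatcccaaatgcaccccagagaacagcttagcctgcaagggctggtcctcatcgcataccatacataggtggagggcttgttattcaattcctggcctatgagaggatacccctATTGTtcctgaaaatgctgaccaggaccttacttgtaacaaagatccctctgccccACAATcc

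The RefSeq table matched 6 of the 10 genes. GGAAG was found upstream of Kdr, Flt1, Flt4 and Tie1, which is 4 of 6, and in 64.1% of all 32851 promoters of the table. ACAAT was found upstream of Tek alone, with 2 matches, and in 27.7% of all promoters. The GC box was found upstream of Kdr, Flt1, Flt4 and Cldn5, and in 32.7% of all promoters. The GATA motif AGATAA was found in none of the 6 and in 9.99% of all promoters. Base composition ran from 51.2% G and C upstream of Tek, through 59.6% for Cldn5 and 61.6% for Kdr, to 70.4% for Flt1, with a median of 52.4% over all promoters. These are matches of letters in a short window and say nothing of binding.

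No member passed an adjusted p of 0.05 in edgeR's quasi-likelihood test in any of the 3 comparisons. That test called few genes at all, 15 genes (0.0964% of those tested) in PD against control, 1 gene (0.00642%) in YZ9 against control and 19 genes (0.122%) in PD against YZ9. Differences of members are therefore given as values with their intervals, and a p above the threshold does not show that levels were alike. The PD and YZ9 comparisons share the same 2 control libraries. In such bulk samples fewer cells of a type and less RNA per cell cannot be told apart.

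In PD explants 7 of the 10 genes had a lower fitted level than in control explants, as did 7713 of all 15568 genes. The median log2 fold change over the 10 was -0.39, against 0.00 over all genes tested. Both PD libraries lay below both control libraries for Flt1, Flt4, Cdh5, Pecam1 and Tie1, which is 5 of 10, as did 19.5% of all genes. Both PD libraries lay above both control libraries for Cldn5 and Tek, as did 19.2% of all genes. An unadjusted p under 0.05 was reached by 2 members in the lower direction, Pecam1 and Tie1, and by 5.38% of all genes. In the higher direction it was reached by none of them and by 5.42% of all genes. DESeq2 called 3.99% of the genes it tested and limma-trend 0.128%, with no member in either.

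In YZ9 explants the genes split. Both YZ9 libraries lay above both control libraries for Kdr, Flt4, Cldn5 and Sox18, which is 4 of 10, as did 21.1% of all genes. Both lay below both control libraries for Pecam1 and Tie1, as did 24.5% of all genes. An unadjusted p under 0.05 was reached in the higher direction by Kdr, Cldn5 and Sox18 (3 of 10, against 4.34% of all genes) and in the lower direction by Pecam1 (1 of 10, against 6.93%). DESeq2 called Cldn5, higher at an adjusted p of 0.000244, and Pecam1, lower at an adjusted p of 0.0304, among the 3.11% of genes that it called. Limma-trend called 0.00642% of genes and no member. In the authors' deposited table Cldn5 was the 1 member among 586 genes past the threshold for YZ9, and no member was among the 594 genes past it for PD.

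**Figure D2:**
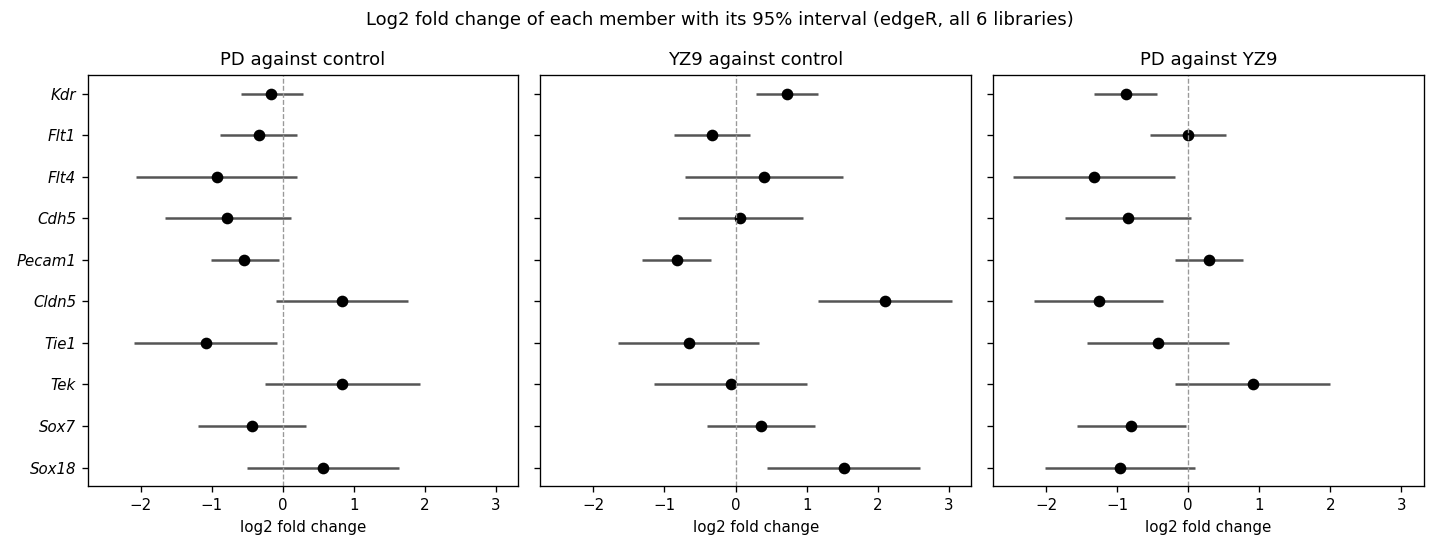
Log2 fold change of the 10 genes with its 95% interval, in 3 panels for PD against control, YZ9 against control and PD against YZ9. Intervals come from edgeR with 2 libraries per group. With YZ9 against control, the intervals of Cldn5 (1.16 to 3.04), Kdr (0.29 to 1.16) and Sox18 (0.45 to 2.59) lie above 0 and that of Pecam1 (-1.31 to -0.35) below 0, before adjustment over all genes.

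Set directly against each other, PD explants had lower fitted levels than YZ9 explants for 8 of the 10 genes, and for 7807 of all 15568 genes. Flt1 is among the 8 with a log2 fold change of only -0.0043. The median log2 fold change over the 10 was -0.82, against 0.00 over all genes. Both PD libraries lay below both YZ9 libraries for Kdr, Flt4, Cdh5, Cldn5, Sox7 and Sox18, which is 6 of 10, as did 21.4% of all genes. Both PD libraries lay above both YZ9 libraries for Pecam1, as did 21.6% of all genes. An unadjusted p under 0.05 was reached in the lower direction by Kdr, Flt4, Cldn5 and Sox7 (4 of 10, against 4.4% of all genes), and in the higher direction by none of the 10, against 7.09% of all genes. DESeq2 called Kdr, lower in PD explants at an adjusted p of 0.00877, among the 3.37% of genes that it called. Limma-trend called 0.218% of genes and no member. PD was given at 1 µM and YZ9 at 10 µM, so the doses differ.

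Kdr encodes VEGF receptor 2, the main signalling receptor for VEGF-A, and it lies on chromosome 5 at 75932827 to 75978458 (GRCm38, minus strand). It stood at 45.8 and 45.0 CPM in PD explants, 90.3 and 76.6 CPM in YZ9 explants, and 56.1 and 45.1 CPM in control explants. Both YZ9 libraries lay above all 4 of the others, and the PD values met the lower control value. The mean was 45.4 ± 0.61 CPM in PD explants, 83.5 ± 9.71 CPM in YZ9 explants and 50.6 ± 7.81 CPM in control explants (SD, n = 2 each). YZ9 against control gave a log2 fold change of 0.72 (SE 0.18), with edgeR's adjusted p = 0.255 and a range of 0.0343 to 0.899 over the alternative settings. For PD against YZ9 it was -0.88 (SE 0.18), with edgeR's adjusted p = 0.17 and a range of 0.0041 to 0.566. PD against control gave -0.16 (SE 0.18), which came to 0.00918 without control replicate 1. Kdr is also the receptor of VEGF-responsive mesoderm that is not endothelial, and the share of its RNA that came from such cells was not measured.

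Flt1 encodes VEGF receptor 1, which binds VEGF-A tightly, signals weakly and also exists as a soluble decoy. It lies on the same chromosome at 147561604 to 147726011 (minus strand). Its level was 74.6 and 59.5 CPM in PD explants, 79.0 and 55.5 CPM in YZ9 explants, and 91.2 and 78.4 CPM in control explants. Both PD libraries were below both control libraries, and YZ9 replicate 1 overlapped the controls. On the log2 scale the fold change was -0.34 (95% interval -0.88 to 0.20) for PD against control and -0.33 (-0.87 to 0.20) for YZ9 against control. The PD value was -0.51 without PD replicate 1, -0.18 without PD replicate 2 and -0.23 without control replicate 1. The YZ9 value was -0.60 without YZ9 replicate 1, -0.0869 without YZ9 replicate 2 and -0.22 without control replicate 1. So the size of both differences rested on single libraries. PD and YZ9 explants had nearly the same mean, 67.0 and 67.3 CPM, with an interval of -0.54 to 0.53 for their log2 difference.

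Flt4 encodes VEGF receptor 3, the receptor for VEGF-C that later marks lymphatic vessels (chromosome 11, 49609263 to 49652739, plus strand). It was counted at 6.69 and 2.42 CPM in PD explants, 10.9 and 12 CPM in YZ9 explants, and 8.84 and 8.54 CPM in control explants. The 3 groups did not overlap, with PD explants lowest and YZ9 explants highest. The PD replicates differed by 2.77 times, the widest replicate gap of any member. For PD against control the log2 fold change was -0.93 (SE 0.47, edgeR's adjusted p = 0.57), and it was -1.84 without PD replicate 1 and -0.38 without PD replicate 2. For PD against YZ9 it was -1.33 (SE 0.48, adjusted p = 0.38), and it ran between -2.24 and -0.79 with 1 library left out. For YZ9 against control it was 0.40, with an interval of -0.71 to 1.51.

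The balance of the VEGF receptors within a library was computed per kb, a quantity on which the scaling of libraries has no bearing. Kdr made up 44.5% and 51.5% of the summed level of the 3 receptors in PD explants, 58.2% and 60.4% in YZ9 explants, and 44.3% and 42.2% in control explants. The Flt1 share was 48.4% and 45.5% in PD explants, 34.1% and 29.3% in YZ9 explants, and 48.1% and 49.1% in control explants. So Kdr exceeded Flt1 in both YZ9 libraries, by ratios of 1.71 and 2.06, whereas the ratio was 0.918 and 1.13 in PD explants and 0.92 and 0.859 in control explants. These shares are a description, and with 2 libraries per group no exact permutation test between groups could go below a p of 0.333.

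Cdh5 encodes VE-cadherin, the adherens junction cadherin of endothelium (chromosome 8, 104101625 to 104144511, plus strand). It stood at 16.8 and 7.85 CPM in PD explants, 23.7 and 20.6 CPM in YZ9 explants, and 22.6 and 19.6 CPM in control explants. The PD libraries were the lowest of the 6, and YZ9 and control explants overlapped. The log2 fold change was -0.78 (SE 0.37, edgeR's adjusted p = 0.542) for PD against control, with -1.42 without PD replicate 1 and -0.33 without PD replicate 2. For PD against YZ9 it was -0.85 (SE 0.37, adjusted p = 0.458), and it ran between -1.50 and -0.41 with 1 library left out. For YZ9 against control it was 0.07, with an interval of -0.81 to 0.95.

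Pecam1 encodes PECAM1 (CD31), an adhesion molecule of endothelial contacts that blood progenitors and platelets also carry (chromosome 11, 106654217 to 106750628, minus strand). Its level was 38.0 and 38.1 CPM in PD explants, 27.6 and 34.5 CPM in YZ9 explants, and 49.9 and 60.4 CPM in control explants. The groups did not overlap, with controls highest and YZ9 explants lowest. The log2 fold change was -0.54 (SE 0.20, edgeR's adjusted p = 0.39) for PD against control and -0.83 (SE 0.20, adjusted p = 0.249) for YZ9 against control. Over the alternative settings the adjusted p of the YZ9 difference ranged from 0.0191 to 0.899. Itga2b, an integrin gene of early blood progenitors and megakaryocytes, stood at 6.96 and 18.7 CPM in PD explants, 5.87 and 6.24 CPM in YZ9 explants, and 18.1 and 21.6 CPM in control explants. Runx1, a factor gene of blood progenitors, stood at 31.3 and 78.3 CPM in PD explants, 66.2 and 65.1 CPM in YZ9 explants, and 97.1 and 109 CPM in control explants. Both YZ9 libraries lay below both controls for 9 of the 10 blood markers, Klf1 being the exception, against 24.5% of all genes. Both PD libraries did so for 1 of the 10, Runx1, against 19.5% of all genes. PD and YZ9 explants overlapped in Runx1 and in the summed blood markers. The part of blood cells in the Pecam1 values was not tested.

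Cldn5 encodes claudin 5, the tight junction protein of endothelium, and is a gene of a single exon (chromosome 16, 18776847 to 18778262, plus strand). It had 84 and 83 counts in PD explants, 175 and 236 counts in YZ9 explants, and 36 and 62 counts in control explants. Scaled for library size this was 3.23 and 3.34 CPM in PD explants, 7.84 and 7.96 CPM in YZ9 explants, and 1.35 and 2.33 CPM in control explants. The 3 groups did not overlap, with YZ9 explants highest, PD explants between and controls lowest. Replicates lay closest in the inhibitor groups, at 3.29 ± 0.0789 CPM in PD explants and 7.90 ± 0.0863 CPM in YZ9 explants, against 1.84 ± 0.696 CPM in control explants (SD, n = 2 each). At these counts, counting error alone exceeds the SDs of the inhibitor groups, so those SDs understate the error.

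For YZ9 against control the Cldn5 log2 fold change was 2.10 (SE 0.39, 95% interval 1.16 to 3.04), which is 4.28-fold and the largest size of any member in the 3 comparisons. Its adjusted p in edgeR was 0.181, and it ranged from 0.000236 to 0.721 over the alternative settings. This log2 fold change itself ran from 1.76 to 2.54. It was 2.10 without YZ9 replicate 2. The fit to the male libraries alone sets the same YZ9 library against the same controls, so its value of 2.10 is no separate check. In the authors' deposited table it was 2.12 with a standard error of 0.47 and an adjusted p of 0.000637. PD against control gave 0.83 (SE 0.38, edgeR's adjusted p = 0.524), with 1.28 without control replicate 2 and 0.49 without control replicate 1, and PD against YZ9 gave -1.26 (SE 0.38, adjusted p = 0.317). The epithelial genes Epcam and Cdh1 were also at higher levels in all 4 inhibitor libraries than in both controls, as were Krt8, Cldn6 and Foxa2. Of 8 listed definitive endoderm and epithelium markers, 6 lay above both controls in PD explants, against 19.2% of all genes. In YZ9 explants 5 of the 8 did, against 21.1% of all genes, and none lay below both controls in either group. The keratin gene Krt18 overlapped controls in YZ9 explants, at 2969 and 2110 CPM against 2615 and 2597 CPM. In PD explants Krt18 stood at 5456 and 2940 CPM. Epcam, an epithelial adhesion gene, stood at 51.9 and 9.22 CPM in PD explants, 38.4 and 17.6 CPM in YZ9 explants, and 0.862 and 2.52 CPM in control explants. Cdh1, the gene of E-cadherin, stood at 79.8 and 21.6 CPM in PD explants, 113 and 30.7 CPM in YZ9 explants, and 1.84 and 3.80 CPM in control explants. Within each inhibitor group Epcam and Cdh1 differed between replicates by far more than Cldn5 did, and the part of epithelial cells in the Cldn5 values was not tested.

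Within a library, the ratio of Cdh5 to Cldn5 per kb was 1.75 and 0.792 in PD explants, 1.02 and 0.874 in YZ9 explants, and 5.63 and 2.84 in control explants. Both control libraries therefore lay above all 4 inhibitor libraries in this ratio. The mean Cldn5 level was 2.32 CPM per kb in PD explants, 5.58 in YZ9 explants and 1.30 in control explants, and in YZ9 explants it overlapped those of Flt1, Cdh5 and Sox7. The ratio of Pecam1 to Kdr was 1.20 and 1.23 in PD explants, 0.443 and 0.652 in YZ9 explants, and 1.29 and 1.94 in control explants. Kdr thus exceeded Pecam1 per kb in YZ9 libraries alone of the 3 groups.

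Tie1 encodes an orphan Tie receptor that forms complexes with TIE2 (chromosome 4, 118471191 to 118490061, minus strand). It stood at 7.15 and 3.62 CPM in PD explants, 8.73 and 5.77 CPM in YZ9 explants, and 12.7 and 10.1 CPM in control explants. Both inhibitor groups lay below both controls and overlapped each other. The log2 fold change was -1.08 (SE 0.42, edgeR's adjusted p = 0.41) for PD against control, with -1.66 without PD replicate 1 and -0.68 without PD replicate 2. For YZ9 against control it was -0.66 (SE 0.41, adjusted p = 0.592), and it ran between -0.98 and -0.37 with 1 library left out. A sex covariate, added after the data were seen, gave -0.77 for PD and -0.29 for YZ9 against control. Per kb, Tie1 stood at 0.287 and 0.148 of the Kdr level in PD explants, 0.178 and 0.138 in YZ9 explants, and 0.417 and 0.413 in control explants.

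Tek encodes TIE2, the receptor of the angiopoietins (chromosome 4, 94739289 to 94874976, plus strand), and was the most abundant member per kb in every library. It stood at 183 and 351 CPM in PD explants, 83.8 and 200.4 CPM in YZ9 explants, and 164 and 135 CPM in control explants. Both PD libraries lay above both controls, while the YZ9 libraries lay on either side of them. The log2 fold change was 0.84 (SE 0.45, edgeR's adjusted p = 0.604) for PD against control, with 0.30 without PD replicate 2 and 1.24 without PD replicate 1. For YZ9 against control it was -0.07 (SE 0.45, adjusted p = 0.966), with 0.43 without YZ9 replicate 1 and -0.82 without YZ9 replicate 2, and 0.0744 without control replicate 1, so the direction rested on single libraries. For PD against YZ9 it was 0.91, with an interval of -0.18 to 2.00, and it ran from 0.36 without PD replicate 2 and 0.41 without YZ9 replicate 1 to 1.66 without YZ9 replicate 2. With sex as a covariate, an alternative added after the data were seen, it was 0.22 for PD against control, -0.75 for YZ9 against control and 0.97 for PD against YZ9, and edgeR's adjusted p was 0.779, 0.182 and 0.0612 in that order.

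The highest Tek level in each inhibitor group was in replicate 2, the female library. Marker sums of other cell types also differed between these replicates, some higher and others lower in replicate 2. Summed genes listed for allantois and extraembryonic mesoderm, 5 tested of 6, were 2187 and 3816 CPM in PD explants. They were 1534 and 2233 CPM in YZ9 explants and 2536 and 2051 CPM in control explants. Tbx4 of that list had at most 3 counts in any library. Much of each sum came from Ahnak, at 922 and 1203 CPM in PD explants and 952 and 1019 CPM in YZ9 explants. Postn stood at 784 and 1555 CPM in PD explants and 158 and 332 CPM in YZ9 explants. The blood marker sums given above were also higher in replicate 2 of each inhibitor group. The highest of them, 7546 CPM, was in the control library with 135 CPM of Tek. Most of that sum was globin RNA, with Hba-x at 4961 CPM and Hbb-bh1 at 1608 CPM, so it says little of blood progenitors. Cardiac marker sums were lower in replicate 2, at 3936 and 1472 CPM in PD explants and 3510 and 1718 CPM in YZ9 explants. Sums for paraxial mesoderm and for definitive endoderm and epithelium were lower there too. Ectoderm sums were higher in replicate 2, and visceral endoderm sums differed in direction between PD and YZ9 explants. The ratio of Tek to Tie1 per kb was 26.8 and 101 in PD explants, 10.0 and 36.3 in YZ9 explants, and 13.4 and 13.9 in control explants. The summed CPM of the members without Tek was 206 and 172 CPM in PD explants, 271 and 236 CPM in YZ9 explants, and 263 and 236 CPM in control explants. The part of sex or of these cell types in the Tek values was not tested beyond the alternative given above.

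**Figure D3:**
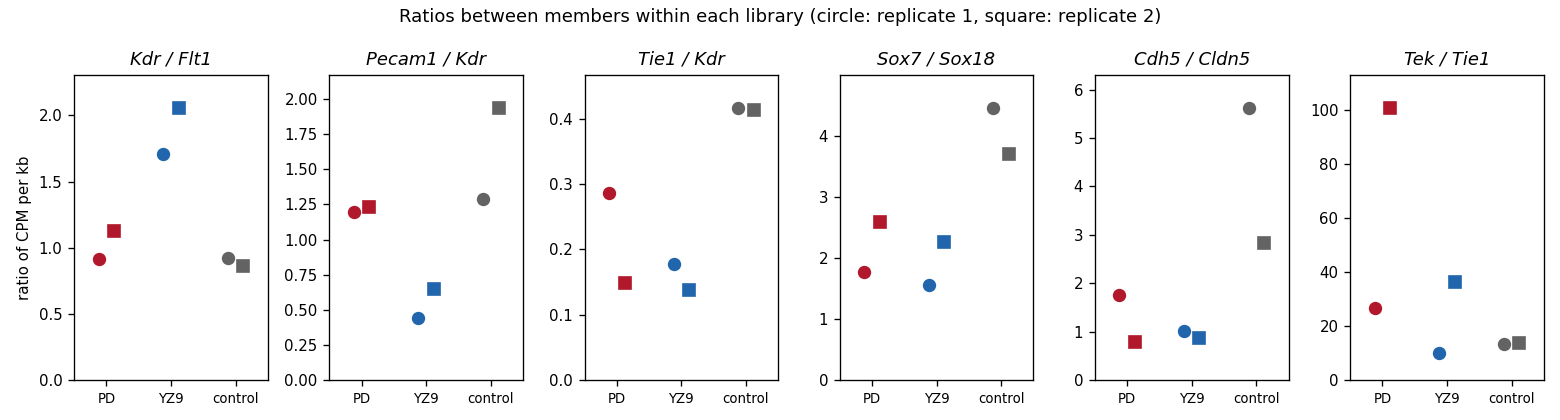
Ratios between members within a library, per kb of exon, on axes that start at 0, with PD explants left, YZ9 explants in the middle and control explants right. Circles are replicate 1 and squares replicate 2. Kdr over Flt1 is 1.71 and 2.06 in YZ9 explants, against 0.92 and 0.859 in control explants, and Sox7 over Sox18 is lower in all 4 inhibitor libraries than in both controls.

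Sox7 encodes a SoxF factor that acts early in haemogenic and endothelial progenitors (chromosome 14, 63943673 to 63950732, plus strand). It stood at 11 and 9.94 CPM in PD explants, 17.2 and 19.1 CPM in YZ9 explants, and 18.0 and 10.2 CPM in control explants. The controls spanned nearly the whole range of the other libraries, so neither inhibitor group separated from them. PD and YZ9 explants did not overlap, and their log2 fold change was -0.80 (SE 0.32, edgeR's adjusted p = 0.425). For PD against control it was -0.43 (interval -1.20 to 0.33), with -0.79 without control replicate 2 and 0.0331 without control replicate 1.

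Sox18 encodes a SoxF factor of vessel and lymphatic development (chromosome 2, 181669836 to 181671640, minus strand). It had 79 and 47 counts in PD explants, 122 and 123 counts in YZ9 explants, and 53 and 36 counts in control explants. In CPM this was 3.04 and 1.89 in PD explants, 5.46 and 4.15 in YZ9 explants, and 1.99 and 1.36 in control explants. Both YZ9 libraries lay above the other 4, and PD explants overlapped controls. YZ9 against control gave a log2 fold change of 1.52 (SE 0.45, edgeR's adjusted p = 0.312, range 0.084 to 0.928 over the alternative settings). PD against control gave 0.56 (interval -0.51 to 1.63), with 0.18 without PD replicate 1, and PD against YZ9 gave -0.96 (interval -2.01 to 0.09).

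The balance of these SoxF genes lay lower in all 4 inhibitor libraries than in both controls, while PD and YZ9 explants overlapped. Sox7 exceeded Sox18 per kb by ratios of 1.77 and 2.58 in PD explants, 1.55 and 2.26 in YZ9 explants, and 4.46 and 3.70 in control explants. Sox7 also serves primitive endoderm, and 7 tested visceral endoderm markers of 8 listed summed to 92.8 and 17.6 CPM in PD explants, 5.46 and 7.89 CPM in YZ9 explants, and 6.0 and 11.3 CPM in control explants. Within PD explants Sox7 stood at 11 CPM in the library with the larger sum and at 9.94 CPM in the other. The highest Sox7 level of all libraries, 19.1 CPM, was in YZ9 replicate 2. The part of such cells in the Sox7 values was not tested.

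The 10 genes did not share a single pattern over the 6 libraries. Pearson's r between members, given as a description with n = 6, was highest for Cdh5 and Flt4 (0.97), then for Tie1 and Flt1 (0.88) and for Sox18 and Kdr (0.85). It was lowest for Sox18 and Pecam1 (-0.91), Tek and Cdh5 (-0.84) and Cldn5 and Pecam1 (-0.83). Against the mean standardized profile of the 10, Flt4 and Cdh5 had an r of 0.95 each and Sox7 0.86, while Tek had -0.77 and Pecam1 -0.21. That mean profile was lowest in PD replicate 2, at -0.77, and highest in YZ9 replicate 1, at 0.42. Among 10115 genes with a mean of at least 5 CPM, the 6 most like it were Obi1 (r = 0.983), Gata5 (0.975), Tcf21 (0.970), Zcchc14 (0.967), Spen (0.964) and Lrp8 (0.964). Gata5, a cardiac and endodermal GATA factor gene, stood at 2.50 and 1.17 CPM in PD explants, 13.1 and 9.41 CPM in YZ9 explants, and 7.42 and 3.69 CPM in control explants. Tcf21, a factor gene of epicardium and visceral mesoderm, stood at 5.50 and 1.97 CPM in PD explants, 8.91 and 7.35 CPM in YZ9 explants, and 8.43 and 6.14 CPM in control explants.

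Other genes of the same pathways were taken from 5 lists, and none of their tested members passed edgeR's adjusted threshold in any comparison. Of VEGF and angiopoietin ligands, co-receptors and the phosphatase gene, 12 of 12 were tested, with a median log2 fold change of -0.24 for PD against control and -0.55 for YZ9 against control. Pgf, which encodes a ligand of FLT1, stood at 26.8 and 34.6 CPM in PD explants, 35.0 and 25.7 CPM in YZ9 explants, and 67.7 and 52.1 CPM in control explants. All 4 inhibitor libraries lay below both controls, at log2 fold changes of -0.96 (SE 0.25, edgeR's adjusted p = 0.229) for PD and -0.98 (SE 0.25, adjusted p = 0.257) for YZ9. Nrp2, a co-receptor gene of VEGF-C, was also below both controls in both groups, at -0.71 for PD and -0.61 for YZ9. The ligand gene of TIE2, Angpt1, stood at 31.4 and 61.1 CPM in PD explants, 7.84 and 21.9 CPM in YZ9 explants, and 24.7 and 30.5 CPM in control explants. The co-receptor gene Nrp1 stood at 864 and 1793 CPM in PD explants, 464 and 1108 CPM in YZ9 explants, and 1160 and 1055 CPM in control explants. Angpt1 and Nrp1, like Tek, were higher in replicate 2 of each inhibitor group than in replicate 1.

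Endothelial and haemangioblast transcription factors (18 of 18 tested) had a median log2 fold change of -0.61 for PD against control, with both PD libraries below both controls for 10 of them, against 19.5% of all genes. The median was -0.32 for YZ9 against control. Mef2c, a factor gene of heart and vessels, stood at 67.0 and 31.2 CPM in PD explants, 122 and 83.0 CPM in YZ9 explants, and 183 and 202 CPM in control explants. Mef2c is also among the cardiac markers summed above. Its log2 fold change was -1.97 (SE 0.38, edgeR's adjusted p = 0.154) for PD and -0.90 (SE 0.37, adjusted p = 0.427) for YZ9. Elk3, an ETS factor gene, gave -1.29 for PD and -0.51 for YZ9, and Ets1 gave -0.31 for PD and -0.46 for YZ9. Nr2f2, a factor gene of veins, stood at 329.8 and 61.9 CPM in PD explants, 35.9 and 27.6 CPM in YZ9 explants, and 33.1 and 41.1 CPM in control explants. The high mean of Nr2f2 in PD explants rested largely on PD replicate 1.

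Other endothelial surface and secreted genes (25 of 26 tested) had medians of -0.27 for PD and -0.21 for YZ9 against control. Ecscr, which encodes a surface protein of endothelial cells, had among the tightest replicates, at 97.2 and 106 CPM in PD explants, 53.7 and 57.2 CPM in YZ9 explants, and 118 and 127 CPM in control explants. The groups did not overlap, and the log2 fold change was -1.14 (SE 0.15, edgeR's adjusted p = 0.127) for YZ9 against control and 0.87 (SE 0.15, adjusted p = 0.114) for PD against YZ9. Cd93 and Cd34, surface genes of endothelium and blood progenitors, gave log2 fold changes of -1.89 each for YZ9 against control and -1.46 and -0.58 for PD against control. Egfl7, a secreted endothelial factor gene, gave 0.39 for PD and 0.54 for YZ9. So, as among the 10 genes, some surface genes had higher and others lower values in YZ9 explants.

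Arterial and Notch genes of endothelium (12 of 12 tested) had medians of -0.56 for PD against control, -0.15 for YZ9 against control and -0.85 for PD against YZ9. Jag1, a Notch ligand gene, stood at 22.3 and 9.22 CPM in PD explants, 50.4 and 29.5 CPM in YZ9 explants, and 143 and 167 CPM in control explants. Its log2 fold change was -3.30 (SE 0.47, edgeR's adjusted p = 0.106) for PD and -1.96 (SE 0.44, adjusted p = 0.227) for YZ9, but Jag1 is active in many tissues. Efnb2, the arterial ephrin gene, gave -1.08 for PD and -0.60 for YZ9, with all 4 inhibitor libraries below both controls. Unc5b, a netrin receptor gene, gave -1.07 for PD and 0.13 for YZ9, and Ephb4, a venous receptor gene, gave 0.12 and 0.48 with wide overlap. Dll4, the arterial Notch ligand gene, was picked out after its values were seen. It had 0 and 1 counts in PD explants, 16 and 22 counts in YZ9 explants, and 1 and 0 counts in control explants. The ratio for YZ9 over control was 38.9, with an exact 95% interval of 6.58 to 1577.6 that covers counting error only.

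Junction partners of broad expression (13 of 13 tested) had medians near that of all genes, 0.00 for PD and 0.02 for YZ9 against control. The catenin genes Ctnnb1 and Ctnna1, whose products link cadherins to actin, gave log2 fold changes of -0.07 and 0.15 for PD, and of 0.02 and -0.14 for YZ9. Cdh2, the N-cadherin gene, gave 0.28 for PD and -0.05 for YZ9. Gja1, a gap junction gene, gave -0.61 for PD and -0.41 for YZ9, with all 4 inhibitor libraries below both controls.

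**Figure D4:**
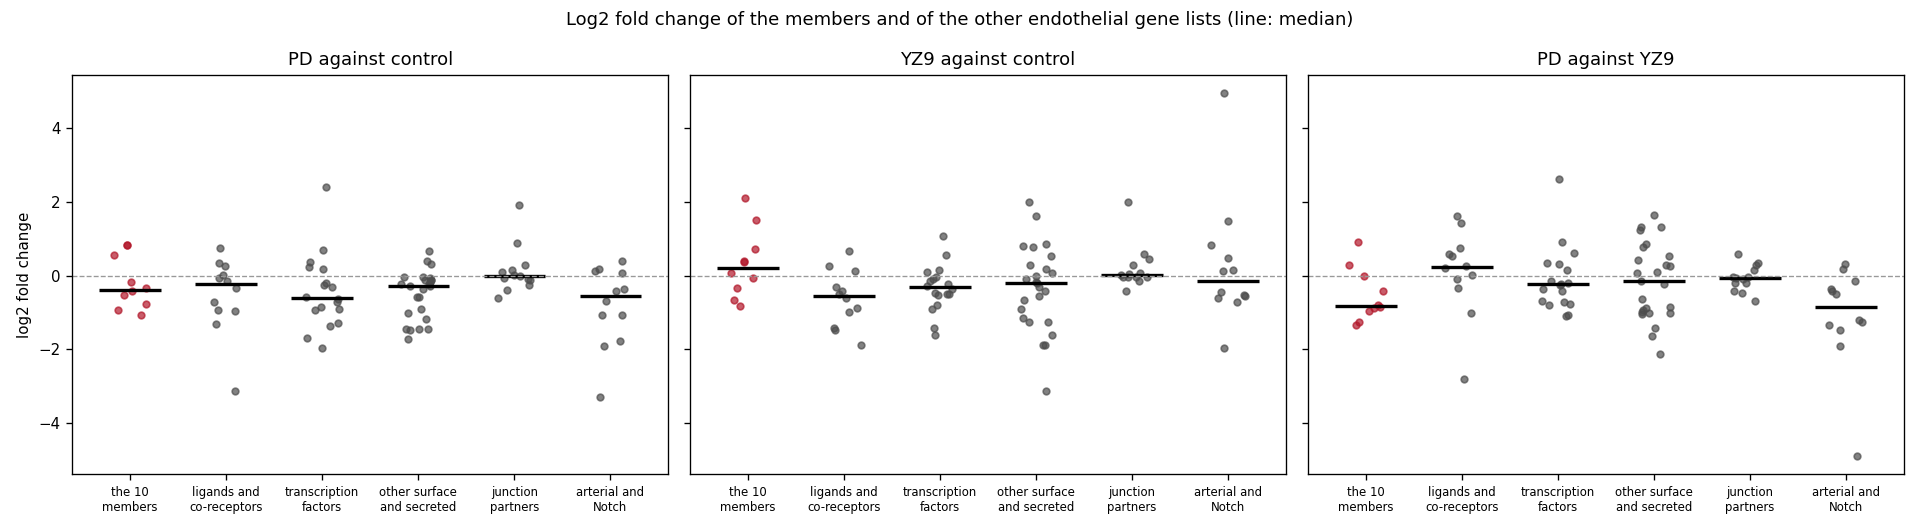
Log2 fold changes of the tested genes of each list and of the 10 members, in 3 panels for PD against control, YZ9 against control and PD against YZ9. Points are genes and lines are list medians, which for the 10 members are -0.39, 0.22 and -0.82. The outermost point of the arterial list in both YZ9 panels is Dll4, whose fitted value rests on 1 count in each of the other groups.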

How the data were processed

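Polyadenylated RNA of 6 mesoderm explant libraries was sequenced after a low-input template-switching preparation that does not keep the strand. The submitters' processing notes name CASAVA 1.8.2, STAR 2.7.9a, DESeq2 1.40.1 and the build GRCm38. No source used here gives the counting step or the annotation release. The authors deposited 2 tables, PD with control and YZ9 with control, and per the file headers each holds a count per gene and library. The control counts in both tables are the same values, so the counts were joined. The deposited normalized values are a signal, namely counts divided by a size factor. The deposited fold change and its error are on the log2 scale, the deposited test statistic is a score, and the deposited p-value columns come with that test, which the authors ran in DESeq2.

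Counts were filtered with filterByExpr (minimum count 10, minimum total 15), scaled by TMM and compared in R 4.3.3 with edgeR 4.0.16 (glmQLFit and glmQLFTest, all 6 libraries in 1 fit, 2-sided, Benjamini-Hochberg adjustment over 15568 genes, threshold 0.05). The common dispersion came to 0.101. Each standard error was obtained by dividing the size of the log2 fold change by the root of its F statistic, and 95% intervals use the t distribution of that test. Depth was 21253194 to 27810161 counts per library, so for well-counted genes the spread between 2 libraries, not counting, sets the precision. For scarce members such as Cldn5 and Sox18 counting error matters as well. Exon lengths and positions come from GENCODE M21 on GRCm38, in which 45143 of 46078 identifiers matched. No member's exons overlap those of another gene. Alternatives were DESeq2 1.42.0 (with its own filter), DESeq2 size factors in edgeR, tests with no filter or with a mean count minimum of 50, limma-trend (limma 3.58.1, prior count 3), edgeR's newer fit, the 4 libraries of a comparison alone, a replicate block and leaving out each library. A fit to male libraries alone, a sex covariate and DESeq2 on filtered genes were added after the data were seen. The male fit leaves 1 library in each inhibitor group, and both controls are male. The fits were tested on simulated data.

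The 10 genes and the lists were chosen with earlier results of these data known. All 10 are named. Of each other list the rule named genes past the threshold or, with none, the 4 with the highest mean CPM. It also named the 6 genes whose profile was most like the members' mean profile.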

Additional observations from a re-analysis of the deposited data

How the results depend on the processing

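Each of the 30 member log2 fold changes was recomputed under 17 alternatives, and of the 510 values 490 kept their direction and their side of the threshold. This tally is no measure of robustness, because several alternatives could hardly move a value. Leaving out a library of the group not compared keeps every library of that comparison, and other fits changed mainly the error or the filter. No member was past the threshold in the main fit, so keeping its side meant staying uncalled. Counts of genes called at an adjusted p of 0.05 varied more. For PD against control it was 15, against 712 without a filter, 622 with DESeq2, 629 with DESeq2 on the filtered genes, 124 with sex as a covariate and 428 in the male libraries alone. For YZ9 against control it was 1, against 556, 501, 519, 122 and 183 under those settings and 5 with 4 libraries alone. For PD against YZ9 it was 19, against 601, 525, 534, 173 and 132, and 34 with limma-trend, 29 with the newer edgeR fit and 0 with 4 libraries alone. Leaving out 1 library gave 0 to 33, 0 to 9 and 0 to 35 genes. With the replicate number as a block the counts were 1, 3 and 12. Replicate numbers are not shown to pair the libraries, as deviations of same-numbered libraries correlated at -0.0985 for PD and control, 0.166 for YZ9 and control and 0.353 for PD and YZ9.

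Members past the threshold for YZ9 against control were 1 without a filter (Cldn5, adjusted p = 0.0107), 2 with DESeq2 and 3 with DESeq2 on the filtered genes (Cldn5 at 0.000236, Pecam1 at 0.0191 and Kdr at 0.0343). For PD against YZ9 it was 1 (Kdr) in each of these, at 0.0313, 0.00877 and 0.0041. The direction turned for 5 values. Flt1 in PD against YZ9 was 0.00818 with limma-trend, 0.00611 with the replicate block and 0.00807 with sex as a covariate, and ran from -0.25 to 0.26 with 1 library left out. On leaving out 1 library, PD against control ran from -0.31 to 0.00918 for Kdr and from -0.79 to 0.0331 for Sox7, and YZ9 against control from -0.0283 to 0.18 for Cdh5 and from -0.82 to 0.43 for Tek. PD replicate 2, the library lowest in Flt4, Cdh5 and Tie1, was read as female. With sex as a covariate, PD against control was -0.14 for Flt1, -0.73 for Flt4, -0.54 for Cdh5, -0.77 for Tie1 and -0.61 for Pecam1. Pecam1 alone of these was larger in size than in the main fit, and the others were smaller. The causes were not tested. With 2 libraries per group, the spread between libraries limits these comparisons.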
